A study of Mus musculus with 9 samples.

Results

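The constitutive proteasome subunit genes encode the standing form of the proteasome, the protease that degrades ubiquitin-tagged proteins. They were taken as the genes with the symbols Psma, Psmb, Psmc or Psmd followed by a number, without the immunoproteasome genes Psmb8, Psmb9 and Psmb10, with a mean of at least 10 estimated counts over the 9 libraries. This gave 36 of the 18571 genes in the deposited table, namely 16 genes of the core particle (8 Psma and 8 Psmb) and 20 genes of the regulatory particle (6 Psmc and 14 Psmd). All 36 symbols that fit the pattern passed the minimum. The members nearest to it were Psmb11, with a mean of 48.4 estimated counts, and Psma8, with 75.7.

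The core particle is a barrel whose outer rings are built from alpha subunits and whose inner rings are built from beta subunits, and a few of the beta subunits carry the proteolytic sites. The regulatory particle caps the barrel, binds and removes ubiquitin chains, unfolds the substrate with a ring of ATPases and opens the gate of the core. In microglia, which are the brain's own immune cells, inflammatory signals such as interferons can exchange the catalytic beta subunits for those of the immunoproteasome.

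Poly-A RNA was sequenced from microglia that had been captured with a CD45 antibody from the cortex and hippocampus of C57BL6/j mice at 9 months of age. Each of 3 genotypes had 3 libraries. WT mice were wild type, APP/PS1 mice carried the APP/PS1 transgenes of an amyloid model, and ACF mice carried APP/PS1 together with Cx3cr1-CreER and Cx43-flox/flox, so that the gap junction gene Cx43 (Gja1) could be deleted in cells that use the Cx3cr1 promoter. Tamoxifen, which activates CreER, was given to all 3 groups by gavage at a dose of 0.1 mg/g on 5 days when the mice were 8 months old. Per the labels only ACF carried the Cre allele, so that the effects of the Cre allele, of the floxed Cx43 and of tamoxifen acting through CreER cannot be told apart. The labels do not say whether the 3 libraries of a group came from separate mice, and p-values here measure only the spread between these libraries.

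The libraries held 18907681 to 19565354 estimated counts. The 14 microglia markers, all detected, summed to 28700 to 28800 CPM (counts scaled to a common library size) in WT, against 34200 to 34500 in APP/PS1 and 30600 to 30700 in ACF, the same order of groups as for most proteasome genes. Of the 14, 9 were higher and 4 lower in APP/PS1 than in WT, and 9 were lower and 3 higher in ACF than in APP/PS1. The list includes Cx3cr1, the gene named in the CreER allele of ACF. It had 45009 to 46438 counts in WT, against 40701 to 41747 in APP/PS1 and 22379 to 23536 in ACF. Part of the fall of the sum in ACF thus lies in this gene. The 10 astrocyte markers summed to 550 to 557 CPM in WT, against 753 to 777 in APP/PS1 and 577 to 592 in ACF, with 9 of 10 higher in the first comparison and 9 lower in the second. The order was the same for T and NK cell markers, at 37.4 to 38.0 CPM in WT, against 54.0 to 55.8 in APP/PS1 and 40.4 to 42.7 in ACF, with 4 of 6 tested higher and then 4 lower. Neuron markers summed to 83.3 to 88.9 CPM in WT, against 97.6 to 105 in APP/PS1 and 70.3 to 74.3 in ACF, with 5 of 9 higher and then 6 lower. In APP/PS1 against WT 8 of 10 proliferation, 7 of 9 vessel, 4 of 5 border macrophage, 4 of 5 B cell and 3 of 9 oligodendrocyte markers were lower. In the next step, to ACF, 9 of the proliferation and 4 of the B cell markers were higher, and 8 of the vessel, 4 of the border macrophage and 4 of the oligodendrocyte markers were lower. Gja1, which is also in the astrocyte list, had 642 to 716 counts in WT, against 688 to 788 in APP/PS1 and 484 to 539 in ACF. Ddx3y, a gene of the Y chromosome, had 4137 to 4538 counts in the WT and APP/PS1 libraries and 0, 1 and 2 in the ACF libraries, so that sex and the ACF genotype cannot be told apart. The 13 monocyte and neutrophil markers summed to 3250 to 3280 CPM in WT, against 970 to 997 in APP/PS1 and 9520 to 9710 in ACF. All 13 were lower in APP/PS1 than in WT and all 13 were higher in ACF than in APP/PS1. The 8 erythroid markers summed to 1190 to 1250 CPM in WT, against 248 to 275 in APP/PS1 and 96.2 to 107 in ACF. Of 19 early-response genes, which can be induced while cells are isolated, 18 were lower in APP/PS1 than in WT, with sums of 30300 to 31900 CPM in WT, against 24700 to 26000 in APP/PS1 and 25900 to 27100 in ACF. The part of these cell types, of early-response genes or of sex in the proteasome results was not tested, and in bulk RNA a change in cell number and a change in RNA per cell cannot be told apart.

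Promoter sequences were available for 29 of the 36 genes, as 31 windows of 250 bases before to 50 bases after a RefSeq start on GRCm38.p6. The windows printed here were chosen to show different behaviour in the results, and belong to the catalytic subunit gene with the largest rise (Psmb6), another catalytic subunit gene (Psmb5), an alpha subunit gene (Psma1), a regulatory particle gene that rose (Psmd14) and one that did not pass the test (Psmd2). They lie at chr11:70525107-70525406 on the plus strand, chr14:54617946-54618245 on the minus strand, chr7:114276067-114276366 on the minus strand, chr2:61711444-61711743 on the plus strand and chr16:20651402-20651701 on the plus strand, in that order. Each is written 5′ to 3′ on the strand of its gene. Capitals mark matches on either strand to TGANNNNGC, the core of the antioxidant response element that Nrf-type factors bind, and to CCAAT, the box that NF-Y binds.
Psmb6: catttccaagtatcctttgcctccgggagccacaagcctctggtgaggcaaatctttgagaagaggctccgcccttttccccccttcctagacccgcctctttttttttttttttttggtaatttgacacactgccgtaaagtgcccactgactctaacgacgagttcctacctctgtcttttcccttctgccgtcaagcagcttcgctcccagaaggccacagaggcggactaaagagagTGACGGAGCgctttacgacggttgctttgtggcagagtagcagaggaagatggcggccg
Psmb5: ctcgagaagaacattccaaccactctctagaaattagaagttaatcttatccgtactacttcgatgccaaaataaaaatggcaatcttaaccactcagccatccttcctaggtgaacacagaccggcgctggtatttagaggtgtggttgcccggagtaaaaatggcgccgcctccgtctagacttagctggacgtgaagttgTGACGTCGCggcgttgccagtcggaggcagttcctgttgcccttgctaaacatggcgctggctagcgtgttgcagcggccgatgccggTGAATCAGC
Psma1: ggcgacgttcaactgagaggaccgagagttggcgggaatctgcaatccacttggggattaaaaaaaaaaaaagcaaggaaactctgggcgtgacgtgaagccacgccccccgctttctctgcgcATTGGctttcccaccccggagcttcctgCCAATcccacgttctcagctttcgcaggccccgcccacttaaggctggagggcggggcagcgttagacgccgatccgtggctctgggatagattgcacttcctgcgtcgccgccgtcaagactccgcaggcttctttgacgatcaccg
Psmd14: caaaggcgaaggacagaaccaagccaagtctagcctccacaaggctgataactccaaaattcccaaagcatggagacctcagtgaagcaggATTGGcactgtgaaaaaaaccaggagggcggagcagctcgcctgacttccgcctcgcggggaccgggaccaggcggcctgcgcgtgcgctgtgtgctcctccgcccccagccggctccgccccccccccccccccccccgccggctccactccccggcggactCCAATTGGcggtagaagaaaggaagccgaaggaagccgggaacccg
Psmd2: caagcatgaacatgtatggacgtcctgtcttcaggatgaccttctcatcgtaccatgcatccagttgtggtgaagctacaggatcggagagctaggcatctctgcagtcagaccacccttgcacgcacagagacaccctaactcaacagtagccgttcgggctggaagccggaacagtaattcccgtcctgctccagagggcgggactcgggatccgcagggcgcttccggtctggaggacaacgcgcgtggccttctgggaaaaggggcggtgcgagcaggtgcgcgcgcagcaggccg
The window of Psmb6 held a single TGANNNNGC match and that of Psmb5 held 2. Those of Psma1 and Psmd14 held 2 and 3 CCAAT matches and no TGANNNNGC match, and that of Psmd2 held neither. In Psmd14 the matches on the 2 strands overlap in the run CCAATTGG.

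Across the windows, TGANNNNGC was found in 76.9% of the 13 core windows (10) and in 44.4% of the 18 regulatory particle windows (8), against 41.3% of all 32851 promoter windows of the same length. CCAAT was found in 53.8% of the core windows (7) and 27.8% of the regulatory particle windows (5), against 37.4% of all windows. GGGCGG, a GC box bound by Sp1, went the other way, with 38.5% of the core windows (5) and 72.2% of the regulatory particle windows (13), against 35.7% of all. A match describes the letters and does not show that a factor binds there.

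Of the 36 genes, 30 were higher in APP/PS1 than in WT, 1 was lower and 5 did not pass the test (edgeR quasi-likelihood test, adjusted p under 0.05 over 14696 genes). The background was wide, since of all tested genes 59.0% were called in this comparison, 26.9% higher and 32.0% lower. The median log2 change of the members was 0.63, against -0.04 over all tested genes. The only member called lower was Psmd3 (-0.23). With per-library offsets for GC content and length it was not called (-0.04, adjusted p 0.305), and the members called lower in that fit were Psmc4 (-0.13, adjusted p 0.0138) and Psmd5 (-0.27, adjusted p 0.000298). The 5 that did not pass were Psmb11, Psmc4, Psmd1, Psmd2 and Psmd11.

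In ACF against APP/PS1, 27 of the 36 genes were lower, 4 were higher and 5 did not pass. Of all tested genes 55.0% were called here, 27.3% higher and 27.7% lower. The median log2 change of the members was -0.41, against -0.01 over all genes. The 4 that were higher, Psmd1, Psmd2, Psmd3 and Psmd11, are all non-ATPase genes of the regulatory particle with effective lengths of 2089 to 3207 nt, and they had been lower or had not passed in APP/PS1 against WT. Both comparisons use the same APP/PS1 libraries, so the opposite signs are not independent of each other. In ACF against WT, 28 genes were higher, 0 were lower and 8 did not pass, at a background of 47.7% called, 24.7% higher and 23.0% lower. The count depended on the scaling, with 19 higher by library totals, 18 by FPKM, and 8 higher and 4 lower by TPM, where 1820 of all 16551 genes were higher and 7275 lower. The median of the members was 0.23, against -0.01 over all genes. By group means of CPM, ACF lay between WT and APP/PS1 for 15 core and 14 regulatory particle genes.

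**Figure D1:**
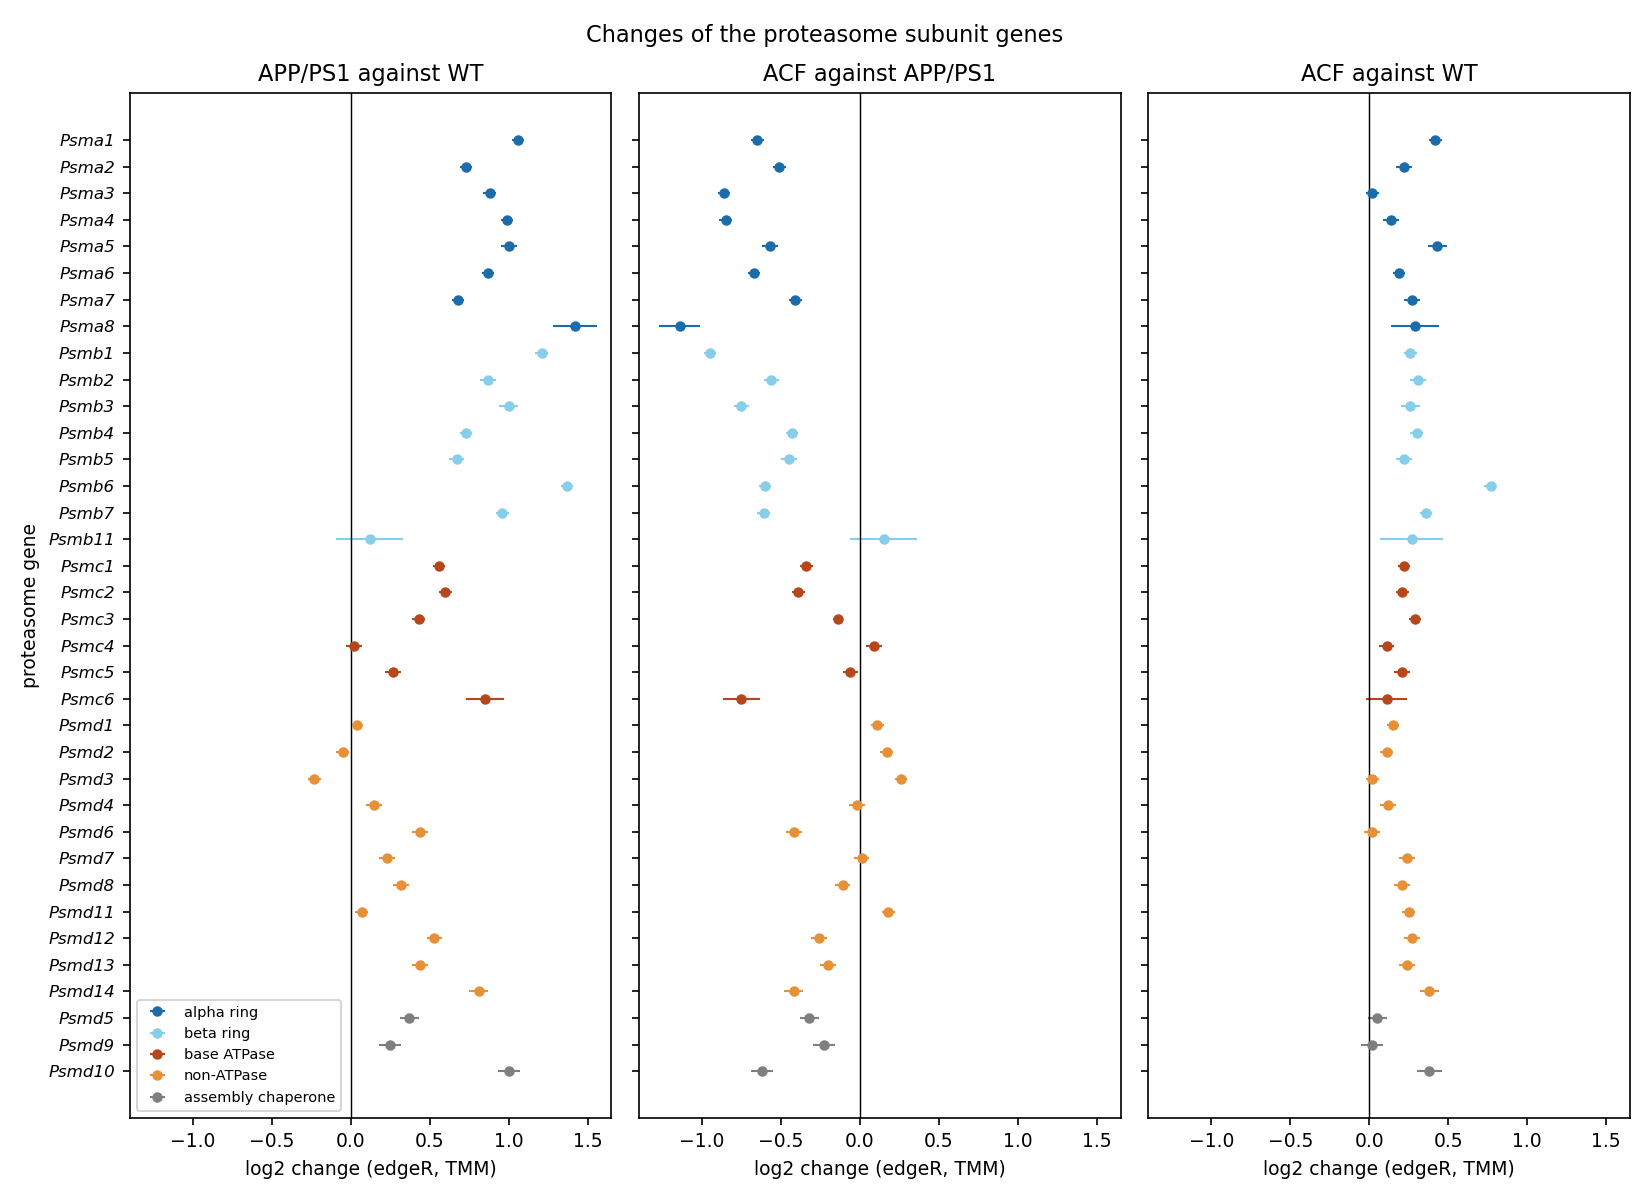
Log2 changes of the 36 genes in the 3 comparisons, with bars of 1 SE from the edgeR fit on 9 libraries and colours by role. Core genes sit at 0.67 to 1.42 in APP/PS1 against WT except Psmb11 at 0.12, regulatory particle genes run from -0.23 to 1.00, and several regulatory particle genes near 0 lie below 0 when TPM is used.

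Levels between libraries depend on the scaling, and TMM scaling was used for all CPM values. Compared with it, the median log2 change of all genes in APP/PS1 against WT moved from -0.04 to -0.17 with library totals and to -0.30 with TPM, and the share of higher genes among all called genes moved from 45.7% to 29.5% and 14.8%. From APP/PS1 to ACF the median moved to 0.12 and that share from 49.6% to 75.4% with TPM. In ACF against WT the median moved to -0.12 and -0.15, and the share from 51.9% to 30.4% and 20%. Relative to the median of all genes, all 16 core genes lay above it in APP/PS1 against WT under TMM, library totals, FPKM and TPM. Of the 20 regulatory particle genes 18 did so under TMM and 15 under TPM. Below the median of all genes in ACF against APP/PS1 were 15 of 16 core genes, under TMM and under TPM.

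The calls were also held to 3 other settings jointly, namely library totals, TPM and the GC and length offsets. Library totals move all genes together by the medians above. By TPM the core median moved from 0.92 to 0.55 in APP/PS1 against WT, by more than the median of all genes. In APP/PS1 against WT all 15 higher core genes kept their call and direction in each of the 3, as did 4 of the 15 higher regulatory particle genes (Psmc1, Psmc2, Psmd14 and Psmd10). In the step from APP/PS1 to ACF 13 of 15 lower core genes did (not Psma7 and Psmb5), 5 of 12 lower regulatory particle genes (Psmc1, Psmc2, Psmd6, Psmd14 and Psmd10) and all 4 higher ones. For ACF against WT these were 5 of 13 core genes (Psma1, Psma5, Psmb4, Psmb6 and Psmb7) and 3 of 15 regulatory particle genes (Psmc3, Psmd14 and Psmd10). Of all genes 66.4% were called in APP/PS1 against WT by library totals, 69.3% by TPM and 53.8% with the offsets. The share of all genes that keep a call in all 3 is not given here, so these counts stand without a background.

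The 8 alpha ring genes were all higher in APP/PS1 than in WT, with log2 changes of 0.68 to 1.42 and a median of 0.93. All 8 were lower in ACF than in APP/PS1, with a median of -0.66. The offsets for GC content and length gave a median of -0.33 with 7 of the 8 lower, while Psma7 went from -0.41 to 0.02 (adjusted p 0.687). Against WT, 6 of the 8 were higher in ACF, with a median of 0.24, and Psma3 and Psma8 did not pass. The alpha subunits form the gate of the barrel and the surface on which activators dock. Psma1 (alpha6) had 48.8, 46.7 and 45.7 CPM in WT, against 98.9, 97.6 and 98.6 in APP/PS1 and 64.5, 61.7 and 62.4 in ACF. The 3 groups did not overlap, with ACF in the middle. The log2 change of Psma1 was 1.06 in APP/PS1 against WT (SE 0.04, edgeR adjusted p 4.25e-18), -0.65 in ACF against APP/PS1 and 0.42 in ACF against WT.

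The other alpha genes rose in APP/PS1 by 0.73 for Psma2 (alpha2), 1.00 for Psma5 (alpha5), 0.87 for Psma6 (alpha1) and 0.68 for Psma7 (alpha4) on the log2 scale. With the GC and length offsets these values were 0.37, 0.76, 0.22 and 0.11, each still called higher. Psma3 (alpha7) and Psma4 (alpha3) were, on the CPM scale used here, the alpha genes nearest to the WT level in ACF, also with DESeq2 size factors (0.05 and 0.17) but not with library totals, TPM or the offsets. Psma3 had 74.0, 77.5 and 78.8 CPM in WT, against 137, 140 and 147 in APP/PS1 and 78.7, 75.1 and 80 in ACF, so that the WT and ACF libraries overlapped. Psma4 had 46.9, 44.6 and 44.6 CPM in WT, against 92.5, 90.0 and 87.5 in APP/PS1 and 51.2, 48.4 and 50.7 in ACF, with no overlap between groups. From APP/PS1 to ACF, Psma3 changed by a log2 value of -0.86 and Psma4 by -0.85, each with an SE of 0.04. With the offsets these values were -0.29 and -0.62. In APP/PS1 against WT the offsets changed Psma3 from 0.88 to 0.16 and Psma4 from 0.99 to 0.68. Against WT, Psma3 in ACF differed by 0.02 (adjusted p 0.707) and Psma4 by 0.14 (adjusted p 0.011), and under TPM these values were -0.18 and -0.06, farther from WT than Psma6 (-0.01) and Psma2 (0.02). With the GC and length offsets Psma3 was called lower than WT (-0.13, adjusted p 0.00848) and Psma4 differed by 0.06.

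Psma8 (alpha4s), the form of alpha4 known from the testis, was the least abundant alpha gene. It had 52, 43 and 53 counts in WT, against 133, 115 and 115 in APP/PS1 and 55, 58 and 57 in ACF. All APP/PS1 libraries were above all others, and ACF was just above WT. Its log2 change was the largest of all members in APP/PS1 against WT, at 1.42 (SE 0.14, adjusted p 1.04e-09), and the most negative in ACF against APP/PS1, at -1.14 (SE 0.13, adjusted p 4.79e-08). Psma8 is closely related in sequence to Psma7, and how reads shared by paralogs were counted is not given in the sources used here.

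Of the 8 beta ring genes, 7 were higher in APP/PS1 than in WT and 7 were lower in ACF than in APP/PS1, with medians of 0.92 and -0.58. Against WT, 7 were higher in ACF, with a median of 0.29. The exception in all 3 comparisons was Psmb11. With the GC and length offsets the first 2 medians were 0.40 and -0.18, with 7 higher and 6 lower. By TPM they were 0.52 and -0.38, with 7 higher and 7 lower. In ACF against WT the offsets gave 7 higher (median 0.21), library totals 6, and TPM 3 higher and 0 lower (median 0.08). By TPM 1820 of all 16551 genes were higher in that comparison and 7275 lower. The 3 catalytic genes are Psmb6 (beta1, caspase-like activity), Psmb7 (beta2, trypsin-like activity) and Psmb5 (beta5, chymotrypsin-like activity). Psmb6 had 47.8, 51.1 and 50.8 CPM in WT, against 124, 132 and 131 in APP/PS1 and 82.2, 88.0 and 84.8 in ACF. The 3 groups were far apart relative to the spread within them. APP/PS1 was 2.58-fold above WT, a log2 change of 1.37 (SE 0.04, adjusted p 2.75e-20). ACF was lower than APP/PS1, at -0.60 (SE 0.04), and was 1.70-fold above WT, a log2 change of 0.77 (SE 0.04, adjusted p 3e-14). The next highest member in ACF against WT was Psma5, at 0.43. With the offsets the values of Psmb6 in the 3 comparisons were 0.86, -0.23 and 0.64, each still called.

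Psmb7 had 56.5, 57.7 and 61.6 CPM in WT, against 113, 115 and 115 in APP/PS1 and 76.5, 70.9 and 77.9 in ACF. Psmb5 had 34.2, 35.1 and 34.6 CPM in WT, against 52.7, 55.2 and 57.3 in APP/PS1 and 38.5, 41.4 and 41.2 in ACF. Neither gene showed overlap between any pair of groups. For Psmb7 the log2 changes were 0.96 in APP/PS1 against WT, -0.61 in ACF against APP/PS1 and 0.36 in ACF against WT, each with an SE of 0.04. For Psmb5 they were 0.67, -0.45 and 0.22, each with an SE of 0.05, which made it the beta gene with the smallest rise in APP/PS1 after Psmb11. Psmb5 in ACF against APP/PS1 was not called with the GC and length offsets (-0.10, adjusted p 0.056), nor in ACF against WT with library totals (0.11, adjusted p 0.059) or TPM (0.02, adjusted p 0.679). The genome holds pseudogenes named after Psmb5, Psmb6, Psmb7 and Psma5, none of them listed in the deposited table, so part of the reads of these 4 genes may be shared with near copies.

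Psmb1 (beta6), a non-catalytic subunit, had the largest rise of the beta genes in APP/PS1 after Psmb6. With the GC and length offsets Psmb1 had the larger value, at 0.91 against 0.86. It had 58.0, 56.3 and 58.6 CPM in WT, against 133, 135 and 133 in APP/PS1 and 68.0, 71.9 and 67.7 in ACF. Its log2 change was 1.21 in APP/PS1 against WT and -0.95 in ACF against APP/PS1 (SE 0.04 for each, adjusted p 5.87e-20 and 1.04e-17). In ACF, Psmb1 was 0.26 above WT (edgeR adjusted p 4.72e-06) without overlap, a smaller difference than that of Psmb6. By TPM it was not called (0.07). The other structural beta genes rose by 0.87 for Psmb2 (beta4), 1.00 for Psmb3 (beta3) and 0.73 for Psmb4 (beta7). With the offsets these values were 0.31, 0.48 and 0.31.

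Psmb11 (beta5t) is the catalytic subunit of the thymus. It had 36, 51 and 52 counts in WT, against 49, 50 and 39 in APP/PS1 and 60, 35 and 63 in ACF, and all groups overlapped. The log2 change was 0.12 in APP/PS1 against WT (SE 0.21, adjusted p 0.641), 0.15 in ACF against APP/PS1 and 0.27 in ACF against WT (adjusted p 0.29). Without ACF replicate 2 the last value was 0.50, with an adjusted p of 0.0403. With an SE of 0.20 to 0.21 it was the least precisely measured member.

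**Figure D2:**
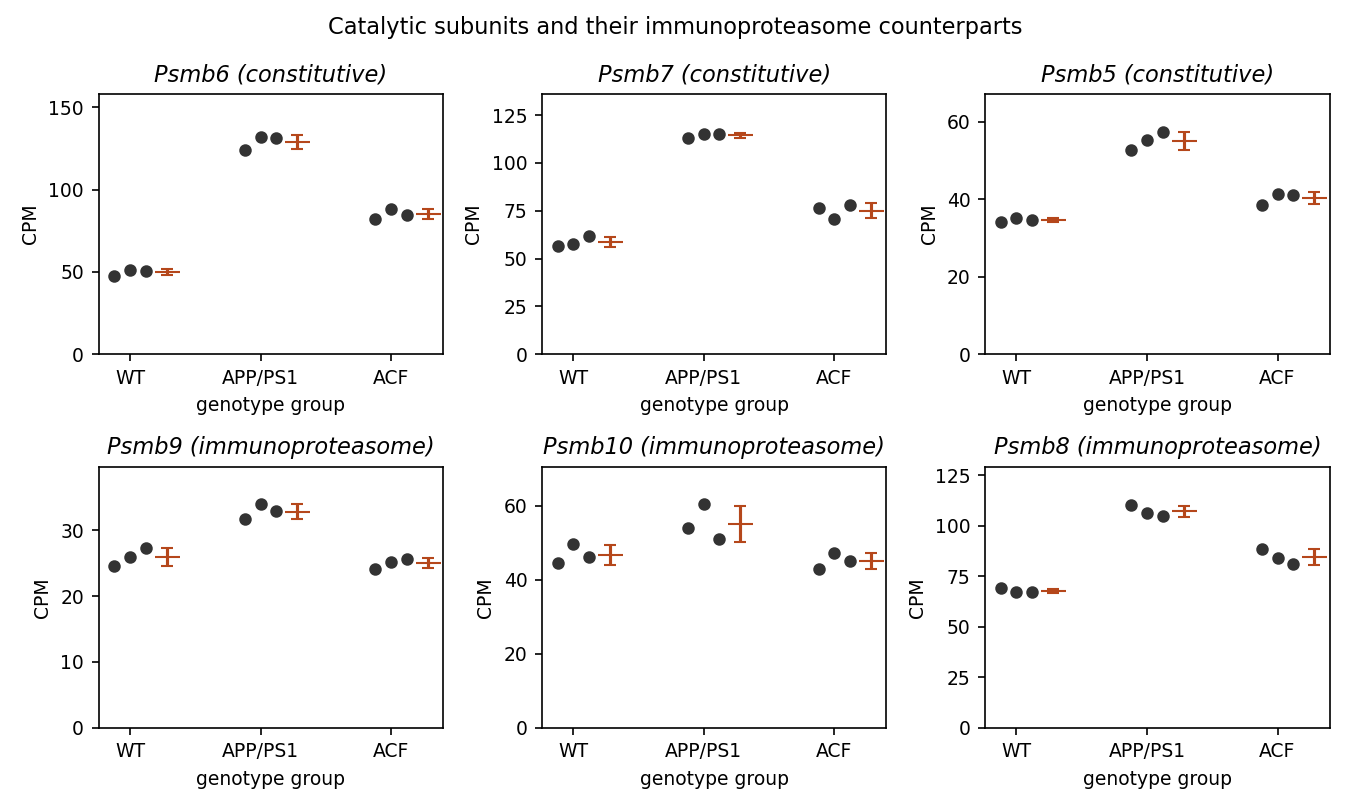
CPM of the 3 constitutive catalytic genes (upper row) and of the immunoproteasome gene that takes the same place in the ring (lower row) in each library, with the mean and SD of 3 libraries in red. Psmb6 runs from 47.8 to 51.1 in WT, against 124 to 132 in APP/PS1 and 82.2 to 88.0 in ACF, while Psmb9 overlaps between WT and ACF.

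All 3 immunoproteasome genes were higher in APP/PS1 than in WT and lower in ACF than in APP/PS1. For Psmb8 (beta5i), Psmb9 (beta1i) and Psmb10 (beta2i) the first log2 change was 0.66, 0.34 and 0.24, and the latter was -0.34, -0.40 and -0.29. Only Psmb8 kept both calls in each of library totals, TPM and the GC and length offsets. Psmb9 kept both with library totals, and Psmb10 kept both with the offsets. With the GC and length offsets Psmb9 was called lower in APP/PS1 than in WT (-0.26, adjusted p 0.000123) and was not called in ACF against APP/PS1 (0.06, adjusted p 0.358), and by TPM Psmb10 was called lower in APP/PS1 (-0.16, adjusted p 0.0438). Mean TPM from WT to APP/PS1 went from 77.0 to 74.3 for Psmb9 and from 90.2 to 80.9 for Psmb10. Against WT, Psmb8 was higher in ACF, at 0.32, and Psmb9 (-0.06) and Psmb10 (-0.05) did not pass. Both were lower under other settings, with Psmb9 called lower in ACF than WT by library totals (-0.17, adjusted p 0.0158), TPM (-0.26, adjusted p 0.000422) and the offsets (-0.20, adjusted p 0.00376), and Psmb10 by library totals (-0.16, adjusted p 0.0272) and TPM (-0.25, adjusted p 0.00631). Per transcript length, the ratio of each to its constitutive partner is independent of the scaling between libraries. The Psmb9 to Psmb6 ratio of TPM was 0.571, 0.561 and 0.580 in WT, against 0.279, 0.285 and 0.280 in APP/PS1 and 0.323, 0.307 and 0.334 in ACF. Both amyloid groups lay far below WT, and ACF lay just above APP/PS1 without overlap. The Psmb10 to Psmb7 ratio averaged 0.571 ± 0.0441 in WT, 0.344 ± 0.0315 in APP/PS1 and 0.438 ± 0.0448 in ACF (SD, n = 3), again without overlap. The Psmb8 to Psmb5 ratio was 1.34 to 1.41 in WT, against 1.28 to 1.47 in APP/PS1 and 1.38 to 1.61 in ACF, and the groups overlapped. In TPM the constitutive gene thus gained on its immunoproteasome partner in APP/PS1 at the beta1 and beta2 places, and at the beta5 place the ratios of the groups overlapped. With the GC and length offsets, which treat genes of different length and GC content differently, the log2 changes in APP/PS1 against WT were 0.86 for Psmb6 against -0.26 for Psmb9, 0.73 for Psmb7 against 0.18 for Psmb10, and 0.25 for Psmb5 against 0.60 for Psmb8. At the beta5 place the immunoproteasome gene thus had the larger value in that fit, and the difference between the 2 genes was not tested.

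The 6 base ATPase genes, whose products form the unfolding ring of the regulatory particle, were less uniform. In APP/PS1 against WT 5 of 6 were higher, with a median of 0.49. From APP/PS1 to ACF 4 were lower, with a median of -0.24, and in ACF against WT 5 were higher, with a median of 0.21. The log2 changes in APP/PS1 against WT were 0.56 for Psmc1 (Rpt2), 0.60 for Psmc2 (Rpt1), 0.43 for Psmc3 (Rpt5), 0.27 for Psmc5 (Rpt6) and 0.85 for Psmc6 (Rpt4). The SE of Psmc6 was 0.12, because its libraries were widely spread. They had 53.5 to 66.1 CPM in WT, against 102 to 118 in APP/PS1 and 59.0 to 75.3 in ACF. Replicate 1 was the highest in each group. With the GC and length offsets 3 of the 6 were higher and 1 lower in APP/PS1 than in WT, with a median of 0.27. Psmc6 was not called in that fit (0.21, adjusted p 0.179, and in ACF against APP/PS1 -0.25, adjusted p 0.123), nor was Psmc5 (0.07, adjusted p 0.23), which by TPM was at -0.12.

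Psmc4 (Rpt3) stood apart from the other ATPase genes. It had 44.4, 46.9 and 45.7 CPM in WT, against 46.9, 47.7 and 44.8 in APP/PS1 and 48.8, 51.6 and 47.9 in ACF. WT and APP/PS1 overlapped and ACF was slightly above both. The log2 change was 0.02 in APP/PS1 against WT (SE 0.05, adjusted p 0.673), with values below 0 under library totals (-0.11) and TPM (-0.36). In ACF against WT it was 0.11 (adjusted p 0.0465), a call that was lost when any library other than WT replicate 2 or ACF replicate 3 was left out, with adjusted p-values of 0.0527 to 0.204, and in the DESeq2 Wald test (adjusted p 0.0642). That call was also lost with library totals (0.01), TPM (-0.08) and the offsets (0.06).

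The 11 non-ATPase genes make up the rest of the base and the lid, where ubiquitin chains are bound and cut. In APP/PS1 against WT 7 were higher and 1 was lower, with a median of 0.23. By TPM, where 10.3% of all genes were higher and 59.0% lower, 1 was higher and 6 were lower, with a median of -0.16. Relative to the median of all genes that is 0.14, against 0.26 under TMM, and with the GC and length offsets 4 were higher and 0 lower, with a median of 0.07. From APP/PS1 to ACF 4 were higher and 5 lower, with a median of -0.02, and in ACF against WT 9 were higher, with a median of 0.21. By TPM, with 41.5% of all genes higher and 13.6% lower, the step to ACF had 6 higher and 2 lower (median 0.17). Relative to the median of all genes that is 0.05, against -0.01 under TMM. With the offsets 5 were higher and 3 lower there (median 0.06). In ACF against WT library totals gave 5 higher, the offsets 8 higher, and TPM 1 higher and 2 lower (median 0.01). By TPM 1820 of all 16551 genes were higher in that comparison and 7275 lower. Psmd14 (Rpn11), the deubiquitinase that removes the chain from the substrate, had 36.5, 32.8 and 33.7 CPM in WT, against 64.1, 56.5 and 59.6 in APP/PS1 and 48.5, 43.3 and 42.6 in ACF. The groups did not overlap. Its log2 change was 0.81 in APP/PS1 against WT (SE 0.06, adjusted p 7.82e-12), the largest of the 11, and -0.42 in ACF against APP/PS1 and 0.38 in ACF against WT.

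Psmd1 (Rpn2) and Psmd2 (Rpn1), the large scaffolds of the base, and Psmd3 (Rpn3) and Psmd11 (Rpn6), which belong to the lid, were not called higher in APP/PS1. Of these 4, Psmd3 was called lower and the others did not pass. With library totals Psmd2 was also called lower (-0.19, adjusted p 3.22e-05), and by TPM Psmd1 (-0.34), Psmd2 (-0.44) and Psmd11 (-0.31) were. Psmd3 had 74.4, 81.4 and 80.1 CPM in WT, against 64.7, 69.9 and 66.1 in APP/PS1 and 77.0, 80.9 and 82.1 in ACF. The APP/PS1 libraries were below all others, and WT and ACF overlapped. The log2 change was -0.23 in APP/PS1 against WT (SE 0.04, adjusted p 5.46e-05) and 0.26 in ACF against APP/PS1 (SE 0.04, adjusted p 1.79e-05). The call of Psmd3 in APP/PS1 was lost with the GC and length offsets (-0.04, adjusted p 0.305) and that in ACF stayed (0.14). Psmd2 had 131, 130 and 134 CPM in WT, against 123, 128 and 129 in APP/PS1 and 136, 144 and 146 in ACF. The groups were ordered APP/PS1, WT and ACF with narrow gaps. The log2 change of Psmd2 was -0.05 in APP/PS1 against WT (adjusted p 0.196), 0.17 in ACF against APP/PS1 (adjusted p 0.000304) and 0.11 in ACF against WT (adjusted p 0.0112), the last of which became 0.09 (adjusted p 0.076) without ACF replicate 3 and 0.00 (adjusted p 0.94) with library totals.

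Psmd11 had 43.1, 42.5 and 42.7 CPM in WT, against 45.1, 45.3 and 44.5 in APP/PS1 and 50.1, 51.0 and 51.8 in ACF. Psmd1 had 87.7, 81.2 and 81.5 CPM in WT, against 88.4, 84.2 and 85.7 in APP/PS1 and 95.8, 89.6 and 93.3 in ACF. Both genes were highest in the 3 ACF libraries. From APP/PS1 to ACF the log2 change of Psmd11 was 0.18 (SE 0.04, adjusted p 0.000947), and from WT to ACF it was 0.25. Psmd1 in ACF was above APP/PS1 by 0.11 (SE 0.04, adjusted p 0.0244), a call that was lost without APP/PS1 replicate 2 or 3 or without ACF replicate 1 or 3 (log2 changes of 0.09 to 0.11, adjusted p 0.0645 to 0.103) and in the DESeq2 Wald test (adjusted p 0.0523). Psmd1 overlaps Htr2b in the genome, and whether the counts used strand is not given in the sources used here.

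The other non-ATPase genes were called higher in APP/PS1 than WT, with log2 changes of 0.15 for Psmd4 (Rpn10, a ubiquitin receptor), 0.44 for Psmd6 (Rpn7), 0.23 for Psmd7 (Rpn8), 0.32 for Psmd8 (Rpn12), 0.53 for Psmd12 (Rpn5) and 0.44 for Psmd13 (Rpn9). By TPM Psmd4 (-0.24, adjusted p 0.000555) and Psmd7 (-0.16, adjusted p 0.00336) were called lower, and Psmd6, Psmd8, Psmd12 and Psmd13 were not called, at 0.04, -0.07, 0.13 and 0.05. The calls of Psmd4 (0.01), Psmd7 (-0.01) and Psmd8 (0.17, adjusted p 0.0862) were lost with the GC and length offsets, and with library totals those of Psmd4 (0.01) and Psmd7 (0.09). The log2 change in ACF against APP/PS1 was -0.42 for Psmd6, -0.26 for Psmd12 and -0.20 for Psmd13, while Psmd4 (-0.02) and Psmd7 (0.01) did not pass. By TPM Psmd12 (-0.06) and Psmd13 (-0.01) were not called there, nor was Psmd13 with the offsets (-0.10, adjusted p 0.0625). For Psmd8 it was -0.11 (adjusted p 0.045), a call that was lost without WT replicate 2 or 3, APP/PS1 replicate 1, or ACF replicate 2 or 3 (adjusted p 0.0554 to 0.397), and without APP/PS1 replicate 1 the value was -0.04. That call was also lost with library totals (-0.08, adjusted p 0.152) and the offsets (-0.01, adjusted p 0.932). In ACF against WT, Psmd4 was 0.12 higher (adjusted p 0.0273) and was not called without WT replicate 3, ACF replicate 2 or ACF replicate 3 (adjusted p 0.0769 to 0.224), or with library totals (0.02, adjusted p 0.786) or the offsets (0.06, adjusted p 0.213).

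The 3 chaperones that guide the assembly of the ATPase ring carry Psmd symbols but leave the finished particle. Psmd10 (gankyrin) had 11.9, 11.9 and 12.0 CPM in WT, against 22.8, 23.6 and 25.2 in APP/PS1 and 14.1, 16.7 and 15.8 in ACF, with no overlap between groups. All 3 chaperones were higher in APP/PS1 than in WT, by log2 changes of 1.00 for Psmd10, 0.37 for Psmd5 (S5b) and 0.25 for Psmd9 (p27). All 3 were lower in ACF than in APP/PS1, with log2 changes of -0.62, -0.32 and -0.23. By TPM Psmd5 (-0.12) and Psmd9 (-0.03) were not called in ACF against APP/PS1. Psmd10 kept both calls with the GC and length offsets (0.64 and -0.34). Psmd5 was there called the other way in both comparisons, at -0.27 (adjusted p 0.000298) and 0.18 (adjusted p 0.0125), and by TPM it was at -0.01 in APP/PS1. Psmd9 in APP/PS1 was not called with library totals (0.11, adjusted p 0.169) or by TPM (-0.13, adjusted p 0.101). Psmd10 overlaps Atg4a, which had a mean of 279 counts. In total 9 of the 36 genes overlap another annotated gene.

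The core and regulatory particle genes differed in the size of their changes. Of the 16 core genes, 15 were higher in APP/PS1 than in WT, with a median of 0.92, and of the 20 regulatory particle genes 15 were higher and 1 lower, with a median of 0.34. By library totals 12 regulatory particle genes were higher and 3 lower, where 2878 of all 14696 genes were higher and 6887 lower, and by TPM 5 were higher and 8 lower, at 10.3% and 59.0% of all genes, while 15 core genes were higher and 0 lower in both. Library totals move all genes together. Relative to the median of all genes the regulatory particle median stood at 0.38 under TMM, 0.38 by library totals and 0.26 by TPM. The core median stood at 0.96, 0.96 and 0.85. In the step from APP/PS1 to ACF, 15 core genes were lower and 0 higher, with a median of -0.60, and 12 regulatory particle genes were lower and 4 higher, with a median of -0.17. By TPM, with 13.6% of all genes lower and 41.5% higher, these were 6 lower and 8 higher (median -0.09 relative to all genes, against -0.16 under TMM), and the core genes still 15 lower and 0 higher. In ACF against WT the medians were close, at 0.27 for the core and 0.21 for the regulatory particle, with 13 of 16 and 15 of 20 higher. By TPM, with 1820 of all 16551 genes higher and 7275 lower, 5 core genes were higher and 1 lower there, and 3 regulatory particle genes higher and 3 lower. The core median minus the regulatory particle median was 0.58, -0.43 and 0.06 in the 3 comparisons.

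Within a library, the ratio of the summed counts of the core genes to those of the regulatory particle genes does not depend on scaling. It was 0.647, 0.653 and 0.674 in WT, against 0.985, 1.03 and 1.04 in APP/PS1 and 0.703, 0.719 and 0.723 in ACF. The APP/PS1 libraries were well above all others, and the ACF libraries were all above the WT libraries by a small margin. The means were 0.658 ± 0.0142 in WT, 1.02 ± 0.0293 in APP/PS1 and 0.715 ± 0.0106 in ACF (SD, n = 3). The summed core CPM was 710 to 728 in WT, against 1361 to 1392 in APP/PS1 and 873 to 889 in ACF. The summed regulatory particle CPM was 1080 to 1097, 1335 to 1381 and 1221 to 1241. Together the 36 genes took 0.190% to 0.192% of the counts in WT, 0.261% to 0.264% in APP/PS1 and 0.206% to 0.208% in ACF.

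**Figure D3:**
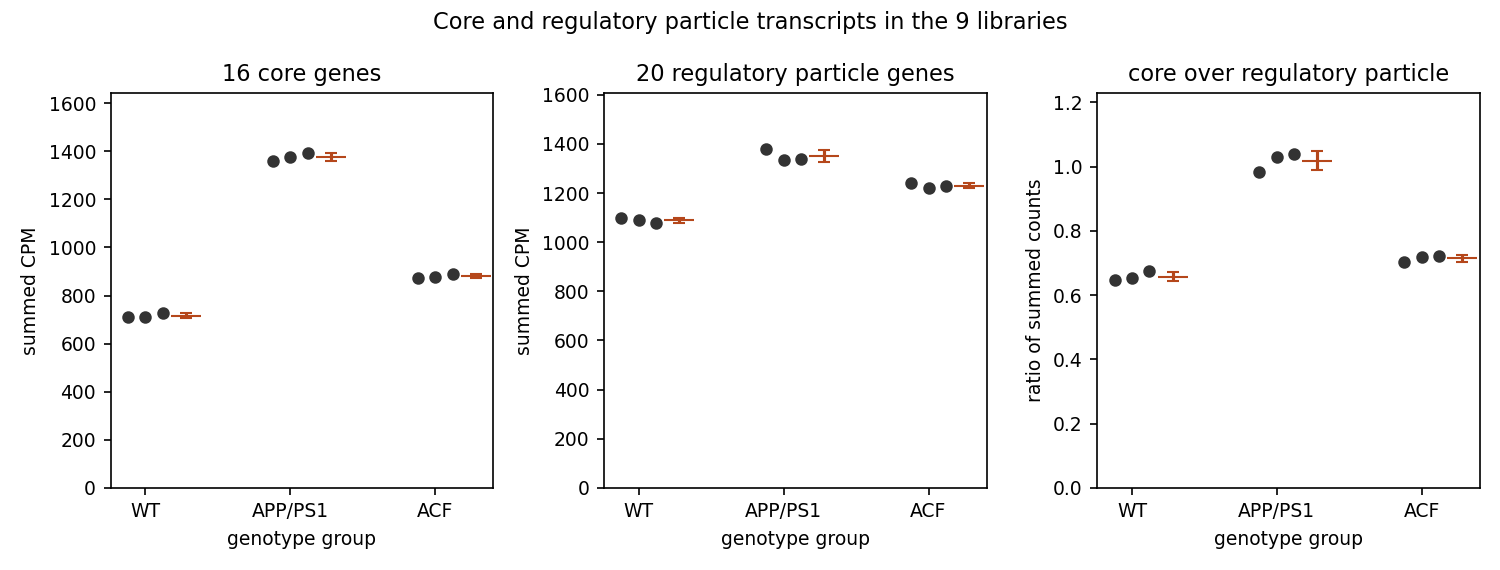
Summed CPM of the 16 core genes and of the 20 regulatory particle genes, and the ratio of their summed counts, for each of the 9 libraries (points) with the mean and SD of 3 libraries in red. The ratio is 0.985 to 1.04 in APP/PS1, 0.703 to 0.723 in ACF and 0.647 to 0.674 in WT.

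Levels between genes can be compared only per transcript length, and the deposited TPM values were used for this. Among the 14 core genes other than Psma8 and Psmb11, mean TPM in WT ran from 68.7 (Psma5) to 212 (Psmb4), with a median of 135. In APP/PS1 the range was 105 to 269 with a median of 183, and in ACF 80.5 to 228 with a median of 139, with the same genes at both ends. Among the 17 regulatory particle genes without the chaperones, mean TPM ran from 48.4 (Psmd11) to 154 (Psmd8) in WT, against 38.8 to 146 in APP/PS1 and 49.8 to 155 in ACF, with medians of 84.0, 72.2 and 78.3. TPM values between groups carry the shift of all genes given above. The ratio of summed TPM of core to regulatory particle was 1.19 ± 0.0265 in WT, 1.79 ± 0.0608 in APP/PS1 and 1.29 ± 0.0265 in ACF (SD, n = 3). Psmb6 ranked 28 from the lowest of the 36 genes in WT, with 135 TPM, and 35 in both APP/PS1 and ACF, with 264 and 199 TPM.

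Transcript length moved with the changes. The effective length implied by the deposited counts and FPKM was 682 to 1206 nt for the 14 core genes other than Psma8 and Psmb11 and 1228 to 3207 nt for the regulatory particle genes. Over all tested genes of 700 to 1000 nt (613 genes), the median log2 change in APP/PS1 against WT was 0.61, and 68.4% were higher. The 9 core genes in that range had a median of 0.87, and all 9 were higher. Between 1000 and 1300 nt the median over 824 genes was 0.31, and 54.0% were higher. The 4 core genes there changed by 0.88 to 1.06, and the 3 regulatory particle genes by 0.15 to 0.44. Between 1300 and 1700 nt the median over 1285 genes was 0.12, with 41.9% higher, and the 11 regulatory particle genes had a median of 0.53, with 10 higher. The median over 2859 genes of 1700 to 2500 nt was -0.00, and over 4245 genes of 2500 to 4000 nt it was -0.09. The regulatory particle had 3 genes in each of these ranges, with medians of 0.07 and 0.04.

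The medians of all genes in ACF against APP/PS1 were -0.52, -0.26 and -0.13 in the same length ranges. The core genes had medians of -0.56 (9 genes) and -0.75 (4 genes) in the first 2 ranges, and the regulatory particle genes had -0.06 (3 genes) and -0.26 (11 genes) in the latter pair of ranges. For 1700 to 2500 nt and 2500 to 4000 nt the medians of all genes were -0.01 and 0.04, and those of the regulatory particle genes 0.18 (2 higher, 1 lower) and 0.11 (2 higher, 1 lower). Of all genes of 2500 to 4000 nt 33.0% were higher in ACF than in APP/PS1. Across the 36 genes the Spearman correlation of change with length was -0.64 in APP/PS1 against WT and 0.63 in ACF against APP/PS1. Within the 16 core genes it was 0.17 and -0.21, and within the 20 regulatory particle genes -0.39 and 0.40. These points share their libraries and the correlations are descriptions.

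A fit with per-library offsets for GC content and length gave 15 core genes higher and 0 lower in APP/PS1 against WT, with a median of 0.43. The regulatory particle genes were then 9 higher and 2 lower, with a median of 0.16. Of all genes 26.1% were higher and 27.7% lower in that comparison and fit. For ACF against APP/PS1 the offsets gave 13 core genes lower and 0 higher, with a median of -0.26. They gave 8 regulatory particle genes lower and 7 higher, with a median of -0.05, where 25.3% of all genes were lower and 26.7% higher. The difference of medians between core and regulatory particle thus fell from 0.58 to 0.27 in APP/PS1 against WT, and changed from -0.43 to -0.21 in ACF against APP/PS1. What links length to genotype in these libraries was not tested.

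**Figure D4:**
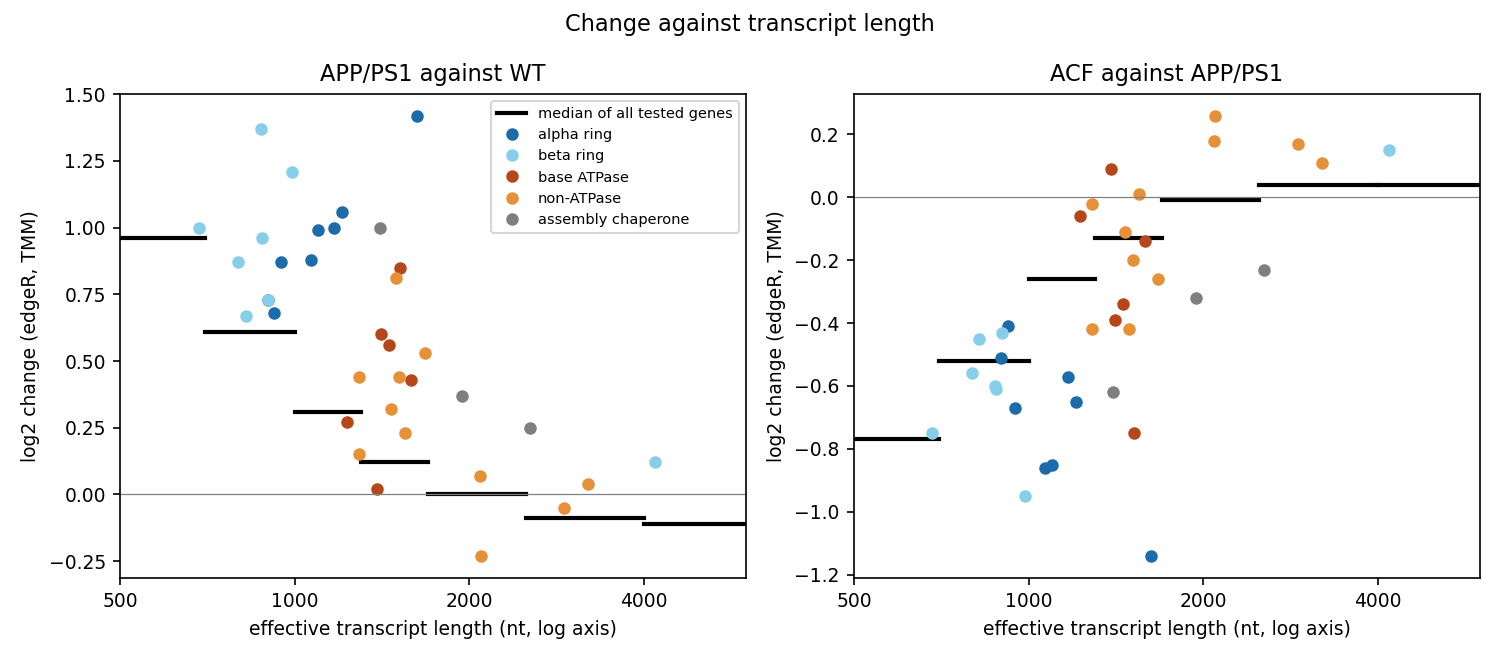
Log2 change of the 36 genes (points, coloured by role) against effective transcript length on a log axis, with the median of all tested genes in 7 length ranges as black bars, of which the outermost are open-ended. In APP/PS1 against WT the bars fall from 0.96 to -0.11, the 9 core genes of 700 to 1000 nt lie at 0.67 to 1.37, and the same trend runs the other way in ACF against APP/PS1.

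Genes that work with the proteasome were followed through lists that hold no member. All 5 core assembly chaperones were higher in APP/PS1 than in WT (median 0.62) and all 5 were lower in ACF than in APP/PS1 (median -0.72). Pomp, which matures the beta ring, had 63.2, 59.2 and 64.5 CPM in WT, against 158, 161 and 165 in APP/PS1 and 88.7, 89.9 and 94.7 in ACF. Its log2 changes were 1.37, -0.83 and 0.55, close to those of Psmb6 in the first comparison. With the GC and length offsets the medians of the 5 were 0.06 and -0.28, with 2 called higher in APP/PS1 and 3 lower in ACF against APP/PS1. Pomp was among the called in both, at 0.81 and -0.39. Sem1, a small lid subunit whose symbol lies outside the rule, was higher by 0.98 in APP/PS1, and the ubiquitin receptor Adrm1 (0.02) did not pass.

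Of the other activators and the inhibitor, 2 of 5 were higher and 2 lower in APP/PS1 than in WT. The subunits of the interferon-inducible PA28 cap rose, by 0.91 for Psme2 and 0.40 for Psme1, and the nuclear activator Psme3 fell by 0.26. Psme1 was called lower with the GC and length offsets (-0.12, adjusted p 0.00503), and by TPM it was at 0.01. From APP/PS1 to ACF 2 were higher and 2 lower. With the offsets 3 were higher and 0 lower there, and in APP/PS1 against WT 1 was higher and 3 were lower. Of the 6 tested deubiquitinases, ligases and adaptors that bind the proteasome, 3 were higher in APP/PS1, led by the deubiquitinase Uchl5 (0.67), and 2 were lower.

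The lists of genes that act before the proteasome had medians of -0.13 to -0.02 in APP/PS1 against WT. Of 6 tested ubiquitin shuttle factors 0 were higher and 4 lower in APP/PS1 than in WT, with a median of -0.13 and Rad23b at -0.28. In ACF against APP/PS1 5 were higher and 1 lower. Of the 5 genes of the p97 unfoldase list 1 was higher and 2 lower in APP/PS1, and Vcp itself (-0.04) did not pass. Of the 2 ubiquitin-activating enzymes Uba1 was lower (-0.31) and Uba6 higher (0.27), the latter at -0.11 by TPM. In the list of Nrf1 and its partners, which control proteasome genes, 2 were higher and 2 lower of 6. By library totals 0 were higher and 4 lower, and by TPM 0 were higher and 6 lower. Of all genes 46.9% and 59.0% were lower in these 2 settings. Nfe2l1, the gene of Nrf1, changed by -0.06 (SE 0.03, adjusted p 0.167), Nfe2l2 was 0.14 higher and Mafg, a small Maf partner, was lower, at -0.40. The first 2 of these depended on the setting, since Nfe2l1 was called higher with the GC and length offsets (0.11, adjusted p 0.00219) and lower by TPM (-0.47), and Nfe2l2 was called lower by TPM (-0.25). Mafg was lower in both (-0.22 and -0.80).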

How the data were processed

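The deposited table gives, per the file headers, for each of the 9 libraries a normalised count, a TPM, an FPKM and an estimated count (single-end 50-nt reads). The submitters' processing notes name HISAT, Bowtie2, DESeq2 and GRCm38.p6, with no roles or versions, and the counting program and its use of strand are not given in the sources used here. The expected counts deposited by the authors carry decimals and are not scaled between libraries, so they were rounded to whole numbers. The authors' FPKM and TPM values are per length, and their normalised counts, a signal scaled by a single factor per library, were not tested. All per-sample columns were mapped by name.

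The edgeR 4.0.16 quasi-likelihood test (R 4.3.3, TMM scaling, filterByExpr, robust dispersion) was fitted on all 9 libraries, with Benjamini-Hochberg adjustment over 14696 genes and a threshold of 0.05. CPM uses TMM-scaled library sizes, and SE is the standard error of the log2 change. The biological coefficient of variation was 3.14%, and 0.988% in the fit with the replicate number as a block. Precision was lowest for Psmb11 and Psma8, which had the fewest counts. On simulated data for APP/PS1 against WT at a variation of 3%, 58% of 1.25-fold and 98% of 2-fold changes were recovered among 14563 genes. At a variation of 10% these shares were 12% and 90%. Only 50 genes were changed at each fold, whereas 59.0% of all genes were called in the data. The simulated shares therefore need not hold for these libraries.

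All members are named. Values per library are given for the catalytic genes, Psmd14 and the 4 largest and 4 smallest changes in each of the first 2 comparisons, with up to 3 genes from each pathway list. Some results of the pathway lists are not reported here. Psmd10, Psmc6 and Pomp were given values per library or ranges after their values were seen. The members, lists and tests were chosen with earlier results of these data known. GC content and length came from GENCODE transcripts (17905 genes) and coordinates from RefSeq (18517 genes). Alternatives were DESeq2 1.42.0 (size factors, Wald test), library totals, no filter on low counts, an adjusted p of 0.01, only the groups compared, the replicate number as a block, GC and length offsets in 10 bins each, limma 3.58.1 on log2(FPKM + 1), log2(FPKM + 0.1) and log2(TPM + 1), a regulatory particle without chaperones, and each library left out in turn.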

Additional observations from a re-analysis of the deposited data

How the results depend on the processing

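The counts of members called higher and lower in APP/PS1 against WT (30 and 1) were 30 and 1 in all fits without a library. In ACF against APP/PS1 these fits gave 3 to 4 higher and 26 to 27 lower, and in ACF against WT 26 to 28 higher and 0 lower. The difference of medians ran from 0.56 to 0.61, -0.46 to -0.42 and 0.05 to 0.11, and the count ratio from 0.65 to 0.663 in WT, against 1.01 to 1.04 in APP/PS1 and 0.711 to 0.721 in ACF. In APP/PS1 against WT, members called lower were 3 with library totals, 3 with FPKM at either pseudocount, 8 with TPM and 2 with the GC and length offsets, with or without the replicate block. Members called higher there were 27, 27 and 20 in that order, and 24 with the offsets (27 with the block), against 30. With the offsets members called higher in ACF against APP/PS1 were 7, those called lower in ACF against WT were 1, and the difference of medians was 0.27 and -0.21 in the first and second comparisons, again with or without the block. With TPM, 8 were higher and 21 lower in ACF against APP/PS1, and 8 were higher and 4 lower in ACF against WT, where FPKM gave 18 higher and library totals 19. Without the chaperones the difference of medians in ACF against APP/PS1 was -0.49 and the count ratios were 0.687, 1.07 and 0.746, and by TPM the ratios were 1.19, 1.79 and 1.29. The cause of these shifts was not tested.

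Members whose log2 change took the other sign, with a call in at least one of the compared fits, were Psmc4 in APP/PS1 against WT with library totals (-0.11), FPKM (-0.11) and the offsets (-0.13), and in that comparison also Psmd7 (-0.01) and Psmd5 (-0.27) with the offsets. In ACF against APP/PS1 the offsets gave 0.02 for Psma7 and 0.18 for Psmd5, and in ACF against WT -0.13 for Psma3. The block left these offset values as they were. With TPM the values in APP/PS1 against WT were -0.36 for Psmc4, -0.12 for Psmc5, -0.34 for Psmd1, -0.24 for Psmd4, -0.16 for Psmd7, -0.07 for Psmd8, -0.31 for Psmd11, -0.01 for Psmd5 and -0.13 for Psmd9. In ACF against APP/PS1 they were 0.05 for Psmc3, 0.14 for Psmc5, 0.17 for Psmd4 and 0.08 for Psmd8. In ACF against WT they were -0.18 for Psma3, -0.06 for Psma4, -0.01 for Psma6, -0.08 for Psmc4, -0.04 for Psmd1, -0.09 for Psmd2, -0.17 for Psmd3, -0.08 for Psmd4, -0.18 for Psmd6 and -0.14 for Psmd5. Over members, comparisons and alternatives, 93 values took the other sign, of which these 38 were called in either fit and 55, at -0.16 to 0.08, in neither. The 55 belong to 13 members, such as Psmd1 (-0.09) and Psmb11 (-0.02) in APP/PS1 against WT with library totals. A further 118 values kept their sign and lost the call, 19 gained it, and 2038 kept both.

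With the replicate number as a block, 30 members were higher and 1 lower in APP/PS1 against WT, 5 higher and 27 lower in ACF against APP/PS1, and 28 higher and 0 lower in ACF against WT. Over 10813 genes, deviations from the group mean correlated by 0.064 to 0.304 in 9 same-numbered pairs and by -0.255 to 0.043 in 18 other pairs, and each library correlated best with its own number in 18 of 18 comparisons, a hint from the data and not from the design. The labels name no shared animal or batch and 1 pair lay under 0.1, so the samples were taken to share only a number. Depth limits Psma8 and Psmb11, whose libraries held at most 133 and 63 counts.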
